A study of Mus musculus with 8 samples.

Results

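Cytochrome oxidase, complex IV of the respiratory chain, passes electrons from cytochrome c to oxygen and pumps protons across the inner mitochondrial membrane. The mitochondrial genome encodes its catalytic core, and nuclear genes encode the smaller subunits that surround it. Several of these exist as isoforms from separate genes. Cox4i1 and Cox4i2 encode the common and the alternative form of subunit IV, and the alternative form is known for expression in lung and for induction at low oxygen. Cox6a1, Cox7a2 and Cox8a encode forms found in most tissues, whereas Cox6a2, Cox7a1 and Cox8b encode the forms of heart and skeletal muscle. Ndufa4 was first assigned to complex I and is now counted as a subunit of complex IV, and its paralog Ndufa4l2 is a known target of the hypoxia-inducible factor HIF-1. These 10 genes, 5 pairs of isoforms, were chosen by name and matched by Entrez identifier to the count table, which holds 27179 genes. All 10 were found and all 10 passed the filter on low counts. They were proposed with results of the same comparison known, in which Cox4i2 had been called. The differences between DE and FA are therefore a description, and their adjusted p-values, taken over all tested genes, are no independent support.

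RNA was measured in neonatal cardiomyocytes (NCMs) of 8 male C57Bl/6J mice on postnatal day 0, 1 heart a library. For RNA-seq the study's methods state fewer hearts per group than the labels list, and every labelled library was used. Dams breathed filtered air (FA, 4 libraries, replicates 2, 3, 4 and 6) or diesel exhaust (DE, 4 libraries, replicates 1, 3, 5 and 7) through most of gestation. Atria and vessels were trimmed, hearts were dissociated, and fibroblasts were left to attach to plastic, so each pellet was enriched in cardiomyocytes rather than pure. Column names and sample descriptions hold a number between the group letters and the replicate, here called the prefix. It is 12 for DE replicates 3 and 5 and 11 for every other library, and its meaning is not stated in the sources used here. The labels do not tie pups to litters, and p-values measure only the spread between these libraries.

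Totals ran from 17943024 to 39839737 counts. The 7 ventricular cardiomyocyte markers summed to between 43205 and 46213 CPM (TMM-normalized CPM, counts scaled to library size) in FA and to between 32668 and 38694 CPM in DE, with none at 0. Most of that difference was Myh6, the adult-type myosin heavy chain, the only marker of the list called (log2 fold change -0.67, means of 23299 and 14622 CPM). All 7 were on the lower side, with a median of -0.15, and the other 6 overlapped between groups, from -0.62 for Ryr2, a calcium release channel, to -0.05 for Myl2, a myosin light chain. Between the most alike libraries of a group, chi-square averaged 4.26 a gene, above sampling noise, and all 8 were counted as separate samples. Of 14966 tested genes, 868 (5.8%) were called, meaning an adjusted p up to 0.05 with at least a 25% difference, 536 of them higher in DE (3.58%) and 332 lower (2.22%). At an unadjusted p under 0.05 stood 3828 genes (25.6%).

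The comparison rests on reads being told apart between isoforms, so the coding sequences of both pairs whose ratio differed are shown, from GENCODE M21 on GRCm38 (the build also called mm10). Capitals mark bases that differ from the partner, or have no partner, in a global alignment. Over their whole coding sequences Cox4i1 and Cox4i2 were 69.2% identical at 490 aligned positions. The first 300 coding bases of each were as follows.
Cox4i1: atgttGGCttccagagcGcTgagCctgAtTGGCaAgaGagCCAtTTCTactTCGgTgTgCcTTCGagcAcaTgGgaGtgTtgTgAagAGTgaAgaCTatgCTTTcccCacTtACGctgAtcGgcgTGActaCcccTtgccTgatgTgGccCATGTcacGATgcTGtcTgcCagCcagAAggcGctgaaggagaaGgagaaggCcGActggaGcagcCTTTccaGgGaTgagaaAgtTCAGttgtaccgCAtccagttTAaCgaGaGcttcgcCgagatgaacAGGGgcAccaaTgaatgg
Cox4i2: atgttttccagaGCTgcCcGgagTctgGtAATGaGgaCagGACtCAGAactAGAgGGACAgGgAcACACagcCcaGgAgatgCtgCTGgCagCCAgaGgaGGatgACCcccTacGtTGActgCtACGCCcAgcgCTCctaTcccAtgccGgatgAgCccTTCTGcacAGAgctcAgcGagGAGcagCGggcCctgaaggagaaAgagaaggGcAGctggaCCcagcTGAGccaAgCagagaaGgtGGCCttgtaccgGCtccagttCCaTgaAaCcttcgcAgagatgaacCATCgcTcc
Ndufa4 and Ndufa4l2 were 67.8% identical at 245 aligned positions, and their coding sequences are given whole.
Ndufa4: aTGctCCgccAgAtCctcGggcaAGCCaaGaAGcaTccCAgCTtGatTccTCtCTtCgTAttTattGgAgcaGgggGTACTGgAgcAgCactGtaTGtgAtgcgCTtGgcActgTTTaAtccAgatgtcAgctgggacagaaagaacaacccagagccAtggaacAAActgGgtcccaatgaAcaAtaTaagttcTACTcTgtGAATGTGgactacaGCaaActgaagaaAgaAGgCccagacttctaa
Ndufa4l2: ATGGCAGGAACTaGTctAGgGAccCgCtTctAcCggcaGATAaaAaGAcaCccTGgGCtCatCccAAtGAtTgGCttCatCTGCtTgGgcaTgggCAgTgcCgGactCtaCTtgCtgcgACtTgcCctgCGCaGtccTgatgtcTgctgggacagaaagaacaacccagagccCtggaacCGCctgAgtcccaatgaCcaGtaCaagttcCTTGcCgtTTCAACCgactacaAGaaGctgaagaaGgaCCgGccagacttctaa
The longest run of bases that the transcripts of a pair shared was 28 for Ndufa4 and Ndufa4l2, 14 for Cox4i1 and Cox4i2, and between 10 and 12 for the other pairs. No stretch of 50 bases of a member occurred in annotated transcripts of another gene, except that 12.3% of those of Cox6a1 also occurred in a transcribed pseudogene. Exons of Cox4i1, Cox6a2 and Ndufa4l2 overlap exons of Emc8, Itgad and Shmt2 on the other strand, over 9.94%, 10.3% and 2.92% of their exonic bases. How the counting used strand is not given in the sources used here. Shmt2, an enzyme of mitochondrial serine metabolism, was itself higher in DE (72.0 ± 8.46 (FA) against 100.6 ± 14.4 CPM (DE), SD, n = 4 each, log2 fold change 0.48).

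In FA hearts the common subunit IV and NDUFA4 transcripts led the family, and the alternative forms of these same pairs were the scarcest. On the scale of CPM per kilobase of transcript, Cox4i1 stood at 999 ± 186 and Ndufa4 at 976 ± 169 (SD, n = 4 each). These neighbours differed by less than their spread, and Cox4i1 was the higher in 3 of 4 libraries. Cox6a2 followed at 688 ± 144, Cox8a at 582 ± 171 and Cox6a1 at 443 ± 109 CPM per kilobase. The steps from Cox6a2 to Cox8a and from Cox8a to Cox6a1 were smaller than the larger SD, although both orders held in all 4 libraries. Cox8b at 285 ± 59.6, Cox7a1 at 178 ± 26.1 and Cox7a2 at 47.1 ± 6.74 CPM per kilobase were each separated from the gene above by more than the larger SD. Ndufa4l2 stood at 6.13 ± 1.24 and Cox4i2 at 3.91 ± 0.681 CPM per kilobase. Per length, Cox4i1 exceeded 99.6% of tested genes and Cox4i2 exceeded 32.9%. Measured against the union of annotated exons, Ndufa4 stood at 325 and Cox4i1 at 480.4 CPM per kilobase, below Cox6a2 at 688, so the order at the top depends on the length used.

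The muscle forms were not uniformly dominant in these newborn cells. Per length, Cox6a2 exceeded Cox6a1 by 1.56-fold (log2 0.65 ± 0.08, SD, n = 4) and Cox7a1 exceeded Cox7a2 by 3.77-fold (log2 1.91 ± 0.04). Cox8b was the minor form, with Cox8a 2.01-fold higher (SD of the log2 ratio 0.16). As a share of the transcripts of its pair, the muscle form made up 61.0% ± 1.27 for subunit VIa, 79.0% ± 0.499 for VIIa and 33.3% ± 2.45 for VIII in FA. The genes of all 3 muscle forms lie on chromosome 7 of GRCm38.p6, Cox7a1 from 30184171 to 30186030, Cox6a2 from 128205435 to 128206366 and Cox8b from 140898942 to 140900446.

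**Figure D1:**
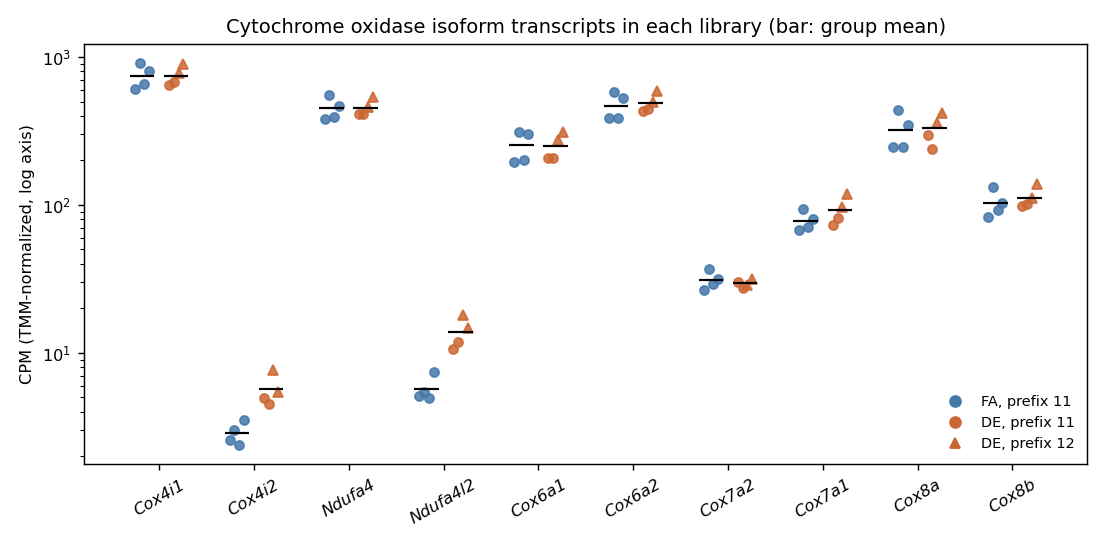
TMM-normalized CPM (log axis) of the 10 isoform transcripts in each of 4 FA and 4 DE libraries, with circles for name prefix 11, triangles for prefix 12 and bars for group means. Only Cox4i2 and Ndufa4l2 have DE libraries that all lie above all FA libraries (4.53 against 3.49 CPM and 10.6 against 7.43 CPM at the nearest points).

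Between DE and FA, the alternative form of subunit IV was 1.99-fold higher while the common form showed no difference past its spread. Cox4i2 (Entrez gene 84682, chromosome 2 from 152753916 to 152765039) was at 2.57, 2.99, 2.37 and 3.49 CPM in FA replicates 2, 3, 4 and 6. In DE replicates 1, 3, 5 and 7 it was at 4.93, 7.69, 5.44 and 4.53 CPM. The lowest DE library lay above the highest FA library, and DE replicate 3 stood highest. Group means were 2.85 ± 0.497 and 5.65 ± 1.41 CPM (SD, n = 4 each), or 0.99 ± 0.20 as log2 fold change with its standard error (edgeR quasi-likelihood, adjusted p = 0.0196). These values rest on 42 to 268 counts a library. Its call was lost without FA replicate 2 (adjusted p = 0.0760), FA replicate 4 (0.0743) or DE replicate 3 (0.0533) in the same edgeR test, and within prefix 11 the log2 fold change was 0.73 (adjusted p = 0.0933).

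Cox4i1 (chromosome 8 from 120668225 to 120674209) was at 607, 909, 657 and 805 CPM in FA replicates 2, 3, 4 and 6 and at 649, 776, 892 and 678 CPM in DE replicates 1, 3, 5 and 7. The groups overlapped over most of their range, and the log2 fold change with its standard error was 0.01 ± 0.15. The ratio of the isoforms within a library does not depend on how libraries are scaled. For every 100 counts of Cox4i1 there were 0.423, 0.329, 0.361 and 0.434 counts of Cox4i2 in FA replicates 2, 3, 4 and 6. In DE replicates 1, 3, 5 and 7 there were 0.760, 0.991, 0.610 and 0.668. The ratio was higher by 0.95 on the log2 scale (standard error 0.18), 3.75 times the pooled SD of 0.25, and the groups did not overlap. Even so, Cox4i2 was a minor form in both groups, at 0.393% ± 0.0508 of the Cox4 transcripts in FA and 0.766% ± 0.168 in DE per length. With exon-union length the shares were 0.760% ± 0.0966 and 1.47% ± 0.319, so the share itself depends on the length used.

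The NDUFA4 pair showed a like arrangement, a scarce paralog that was higher in DE beside an abundant gene whose groups overlapped. Ndufa4l2 (Entrez gene 407790, chromosome 10 from 127509274 to 127517154) was at 5.13, 5.43, 4.91 and 7.43 CPM in FA replicates 2, 3, 4 and 6. In DE replicates 1, 3, 5 and 7 it was at 10.6, 18.1, 14.7 and 11.9 CPM. All DE libraries lay above all FA libraries, with DE replicate 3 again the highest and FA replicate 6 the nearest to DE. Means were 5.72 ± 1.15 and 13.8 ± 3.33 CPM (SD, n = 4 each), or 1.28 ± 0.19 as log2 fold change with its standard error (edgeR quasi-likelihood, adjusted p = 0.00495), the largest of the family. Leaving out any of the 8 libraries in turn kept the call, and the log2 fold change lay between 1.12 and 1.42. It was also kept within prefix 11 (0.97).

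Ndufa4 (chromosome 6 from 11900372 to 11907450) was at 383, 550.5, 393 and 469 CPM in FA replicates 2, 3, 4 and 6 and at 412, 456, 540.4 and 411 CPM in DE replicates 1, 3, 5 and 7. Its log2 fold change was 0.02 ± 0.14 (standard error). The log2 ratio of Ndufa4l2 to Ndufa4 counts was -6.22, -6.66, -6.31 and -5.98 in FA replicates 2, 3, 4 and 6. In DE replicates 1, 3, 5 and 7 it was -5.28, -4.65, -5.20 and -5.11. The ratio was higher in DE by 1.23 on the log2 scale (standard error 0.20), 4.37 times its pooled SD, without overlap of the groups. Over all tested genes, the CPM ranges of the groups did not overlap for 14.7%, with DE the higher group for 7.43% and the lower for 7.26%. Among the 10 members this held for Cox4i2 and Ndufa4l2, which were also the 2 members called. Since results of this contrast were known when the members were chosen, nothing is read from that count.

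**Figure D2:**
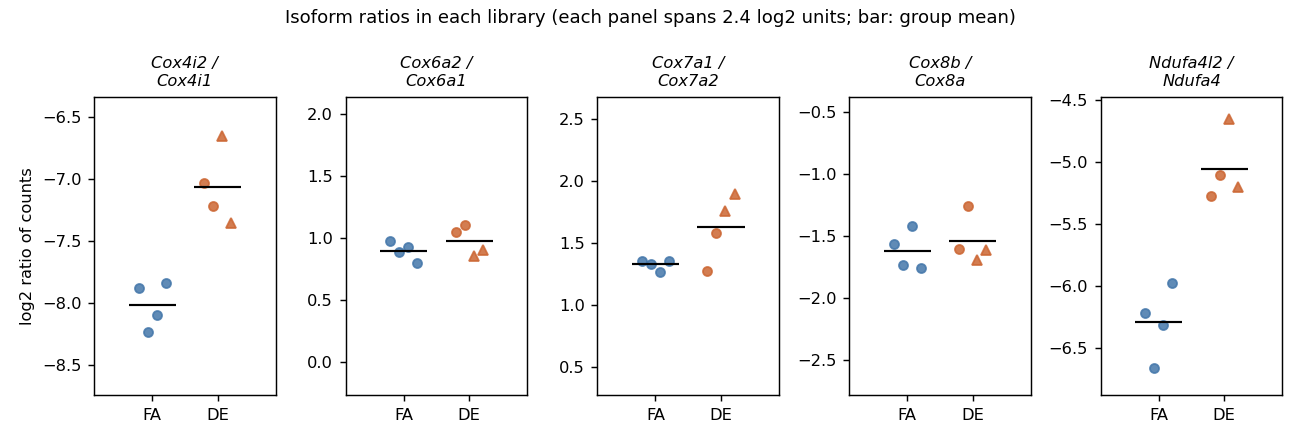
Log2 ratio of the counts of the isoforms of each pair in each library, with FA in blue, DE in orange, triangles for name prefix 12 and bars for group means. Each panel spans the same range, and DE and FA separate for Cox4i2 over Cox4i1 (means -7.07 and -8.01) and for Ndufa4l2 over Ndufa4 (-5.06 and -6.29).

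The pairs with a muscle form did not separate the groups. Cox6a2 was at 385, 577, 385 and 524 CPM in FA replicates 2, 3, 4 and 6 and at 432, 497, 588 and 443 CPM in DE replicates 1, 3, 5 and 7. Cox6a1 ranged from 195 to 312 CPM in FA and from 207 to 313 CPM in DE. The Cox6a2 to Cox6a1 ratio differed by 0.08 on the log2 scale (standard error 0.07), less than its pooled SD of 0.10, and the groups overlapped. Cox8b ranged from 83.4 to 132.7 CPM in FA and from 97.6 to 137.7 CPM in DE, and Cox8a from 246 to 442 and from 241 to 420.2 CPM. Their ratio differed by 0.08 (standard error 0.13), again within the pooled SD of 0.18.

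The VIIa pair leaned to the muscle form in part of the DE libraries. Cox7a1 was at 68.0, 93.3, 70.5 and 80.2 CPM in FA replicates 2, 3, 4 and 6 and at 73.0, 97.2, 117.7 and 81.5 CPM in DE replicates 1, 3, 5 and 7 (log2 fold change 0.24, standard error 0.16, edgeR quasi-likelihood, adjusted p = 0.344). Cox7a2 lay between 26.5 and 37.0 CPM in FA and between 27.2 and 31.6 CPM in DE. The log2 ratio of Cox7a1 to Cox7a2 counts was 1.36, 1.33, 1.26 and 1.35 in FA replicates 2, 3, 4 and 6. In DE replicates 1, 3, 5 and 7 it was 1.28, 1.76, 1.90 and 1.58. DE replicate 1 lay within the narrow FA range, while DE replicates 3, 5 and 7 lay above it. The mean difference was 0.30 on the log2 scale (standard error 0.14), 1.57 times the pooled SD. Both libraries of prefix 12 had the highest ratios, and within prefix 11 the difference was 0.10.

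The 8 members that were not called varied together from library to library. FA replicate 3 was the highest FA library and DE replicate 5 the highest DE library for all 8 of them. FA replicate 2 was the lowest FA library for 7. After group means were removed, the 28 pairs among these 8 genes had a median Pearson r of 0.94 over 8 libraries (0.68 to 0.98). Cox4i2 and Ndufa4l2 correlated with each other at r = 0.91 and with the 8 others at a median of 0.55 (0.16 to 0.71). All genes of a library share its depth and composition, so the correlations are only a description. The 2442 tested genes with transcripts of 1000 bases or less moved the same way, with a median deviation from the group mean of 0.13 in FA replicate 3 and -0.11 in FA replicate 2 on the log2 scale, against 0.32 and -0.27 for the 8 members. In DE replicate 5 these deviations were 0.11 and 0.29. Between DE and FA the short transcripts had a median log2 fold change of 0.09, against 0.00 over all tested genes and 0.05 for the 10 members. When offsets took up transcript length and GC content, Cox4i2 stood at 0.81 and Ndufa4l2 at 1.06, both still called, and the 8 others between -0.21 and 0.10.

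The rest of the complex gave no call. Of 8 other nuclear-encoded subunits tested, 0 were called by edgeR's quasi-likelihood test (0 at an unadjusted p under 0.05, and 0 with DESeq2), beside 5.8% and 25.6% of all tested genes, and their log2 fold changes ran from -0.05 for Cox5a to 0.22 for Cox6b2, with a median of 0.02. Cox7b, a small structural subunit, was at 582 ± 82.1 (FA) against 606 ± 96.3 CPM (DE) (SD, n = 4 each). Of the 3 mitochondrially encoded subunits, which form the catalytic core, 0 were called by either tool (0 at an unadjusted p under 0.05), and the same shares of all genes apply to so short a list. mt-Co1 had a log2 fold change of -0.10, mt-Co2 of 0.11 and mt-Co3 of 0.04. Cycs, the somatic cytochrome c that feeds the complex, was at 299 ± 29.0 (FA) against 316 ± 35.4 CPM (DE).

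**Figure D3:**
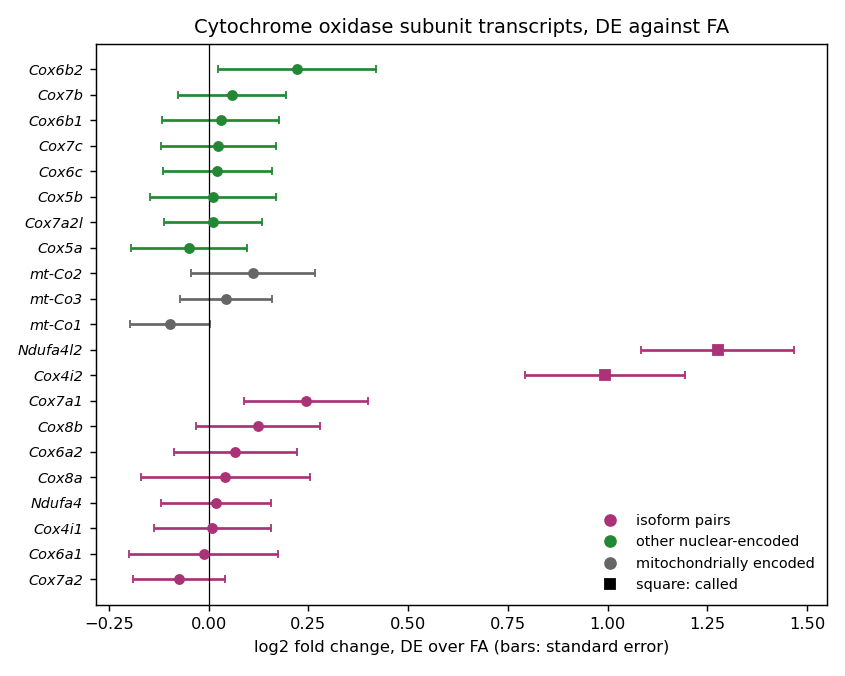
Log2 fold change of DE over FA with its standard error for the 10 isoform genes, 8 other nuclear-encoded subunits and 3 mitochondrially encoded subunits, with squares for called genes. Ndufa4l2 (1.28) and Cox4i2 (0.99) stand apart from the other subunits, which lie between -0.10 and 0.24.

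Among 23 assembly factors tested, 1 was called, where 5.8% of all tested genes were. Coa5, required for an early step of assembly, fell, with FA at 125 ± 6.61 and DE at 88.6 ± 2.96 CPM (SD over 4 libraries), or -0.49 ± 0.09 as log2 fold change with its standard error (edgeR quasi-likelihood, adjusted p = 0.0102). Its call was lost within prefix 11 and with the 25% difference built into the test. The 23 factors had a median log2 fold change of -0.01, 10 higher and 13 lower. At an unadjusted p under 0.05 there were 7 of 23, where 25.6% of all tested genes were.

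Cox4i2 and Ndufa4l2 are both known as genes induced at low oxygen, so 20 hypoxia-response genes were set beside them. Of these, 7 rose, where 3.58% of all tested genes were called as higher, and 0 fell, with a median log2 fold change of 0.35, against 0.00 over all tested genes. In all, 16 were on the higher side and 4 on the lower, these being Car9, Kdm3a, Ddit4 and Mxi1 (-0.35, -0.23, -0.14 and -0.13, none called), and Vegfa stood at 0.07. Apln, a vascular peptide hormone, rose from 4.52 ± 0.679 to 13.5 ± 6.17 CPM (SD, n = 4 each). Bnip3, a mitophagy receptor, rose from 88.4 ± 7.74 to 191 ± 26.0 CPM, Slc2a1, a glucose transporter, from 26.9 ± 1.52 to 52.0 ± 9.90 CPM, and Ldha, of lactate dehydrogenase, from 716 ± 46.1 to 1170.4 ± 123 CPM. The count was 3 without FA replicate 2 or DE replicate 3, 4 without FA replicate 4 and 3 within prefix 11. The part of low oxygen was not tested.

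Of 7 factors linked to the control of Cox4i2 or of the isoform exchange, 0 were called by edgeR's quasi-likelihood test (3 at an unadjusted p under 0.05, where 25.6% of all tested genes were, and 0 with DESeq2). Epas1, which encodes HIF-2 alpha, was at 139 ± 10.9 (FA) against 175 ± 25.8 CPM (DE), a log2 fold change of 0.34 (adjusted p = 0.112 in that test). Cxxc5, a zinc finger protein that binds DNA, was at 48.6 ± 1.78 (FA) against 39.6 ± 3.45 CPM (DE), a log2 fold change of -0.29 (adjusted p = 0.0855 in that test). Of the 7 factors 1 was on the higher side and 6 on the lower, with a median of -0.19. Hif1a, which encodes HIF-1 alpha, stood at -0.22, and Arnt, its partner, at -0.23 with all DE libraries below all FA libraries. Transcript levels of these factors do not measure their protein or activity.

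In whole hearts Cox4i2 and Ndufa4l2 are also known from pericytes, the mural cells of capillaries, and markers of other cells were therefore read in the same libraries. The 10 pericyte markers summed to between 684 and 906 CPM in FA and to between 683 and 851 CPM in DE, with none at 0. Abcc9 alone gave 401 of these in FA and 298 in DE on average, and without it the sum ran from 363 to 467 CPM in FA and from 437 to 551 CPM in DE. Of these, 1 was called, Higd1b, which was at 1.55 ± 0.776 (FA) against 3.72 ± 0.888 CPM (DE) (log2 fold change 1.28, edgeR quasi-likelihood, adjusted p = 0.0322). Its call was lost without FA replicates 2, 3 or 4 or DE replicate 3. It was also lost with the name prefix as a term, within prefix 11 and with the 25% difference built into the test. Over the list 8 markers were on the higher side and 2 on the lower, with a median log2 fold change of 0.20. The 1 call and the 3 markers at an unadjusted p under 0.05 stand beside 5.8% and 25.6% of all tested genes. Mcam, an adhesion molecule, had a log2 fold change of 0.31 with all DE libraries above all FA libraries, and Abcc9, a potassium channel subunit also used by cardiomyocytes, of -0.43. Pdgfrb and Cspg4, receptor and surface proteins used to define pericytes, stood at 0.19 and 0.13, and Rgs5 at -0.51. Of these 5 genes none was called. Of the other mural cells, the 6 smooth muscle markers included 0 called by that test (2 at an unadjusted p under 0.05, and 1 with DESeq2), beside the same shares, and their sum, set mainly by Acta2, ran from 1102 to 1745 CPM in FA and from 789 to 1172 CPM in DE. Of that sum Acta2 alone gave 1151 CPM in FA and 746 CPM in DE on average. Log2 fold changes of the 6 smooth muscle markers ran from -0.63 for Acta2, smooth muscle actin, to 1.10, with Smtn, smoothelin, at 0.25. Of these markers 4 were on the higher side and 2 on the lower, with a median of 0.28.

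The 8 fibroblast markers all had positive log2 fold changes, and 2 of them passed the test, where 3.58% of all tested genes were called as higher. They summed to between 2008 and 3461 CPM in FA and to between 3655 and 6177 CPM in DE, with 2 called (Col1a1, a collagen chain, at 0.95 and Dcn, decorin, at 0.56 on the log2 scale), none at 0 and a median log2 fold change of 0.66. At an unadjusted p under 0.05 there were 6 of the 8, where 25.6% of all tested genes were. DESeq2 called 6 of them, and 1620 of 21744 genes in all. Without single libraries between 1 and 4 of them were called by the quasi-likelihood test. Within DE, all 8 were highest in replicate 1 and lowest in replicate 5. The 6 endothelial markers summed to between 846 and 1119 CPM in FA and to between 870.1 and 1313 CPM in DE, with 0 called by the quasi-likelihood test (2 at an unadjusted p under 0.05, and 1 with DESeq2), beside 5.8% and 25.6% of all tested genes. Emcn and Pecam1, endothelial surface proteins, had log2 fold changes of 0.51 and 0.37, whereas Cdh5 and Kdr stood at 0.01 and 0.03. Of the endothelial markers 5 were on the higher side and 1 on the lower, with a median of 0.11. In bulk RNA, more cells of a type and more RNA per cell cannot be told apart, and the part of other cell types in the differences of Cox4i2 and Ndufa4l2 was not tested. For the muscle forms, which skeletal muscle and brown fat also express, 9 skeletal muscle markers summed to 9.02 CPM or less in every library, with Myod1 at 0 counts. The 7 brown fat markers summed to between 41.0 and 50.8 CPM in FA and to between 34.8 and 40.6 CPM in DE, with Prdm16, a transcription factor, at 25.2 and 20.3 CPM, and Adipoq and Plin1 at 0.143 CPM or less. Of the 4 brown fat markers tested 1 was called as lower, where 2.22% of all tested genes were. This was Cidea, a lipid droplet protein (16.4 ± 2.29 (FA) against 8.61 ± 0.914 CPM (DE)). Prdm16 was also on the lower side, while Ucp1 and Dio2 were on the higher side (log2 fold changes 0.73 and 0.30, neither called). The median of the 4 was -0.01. Of 6 erythroid markers 1, Slc4a1, the red cell anion exchanger, was called as higher (log2 fold change 0.95), where 3.58% of all tested genes were. All 6 were on the higher side, with a median of 0.41. No erythroid marker was called without FA replicates 2, 4 or 6 or DE replicates 1 or 3, within prefix 11, or with the 25% difference built into the test. By the quasi-likelihood test 0 of 4 leukocyte, 0 of 4 skeletal muscle and 0 of 4 atrial markers tested were called (1, 1 and 2 at an unadjusted p under 0.05, and 1, 0 and 1 with DESeq2), again beside 5.8% and 25.6% of all tested genes. Their smallest p-values belonged to Cd68 and Ptprc (log2 fold changes 0.65 and 0.49), Myh8 and Tnnt3 (0.59 and -0.23), and Nppa and Nr2f2 (-0.82 and 0.28). On the higher side were 3 leukocyte, 1 skeletal muscle and 3 atrial markers, and on the lower side 1, 3 and 1. The leukocyte marker on the lower side was Csf1r (-0.18), and Cd52 and Adgre1 were too low to test.

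**Figure D4:**
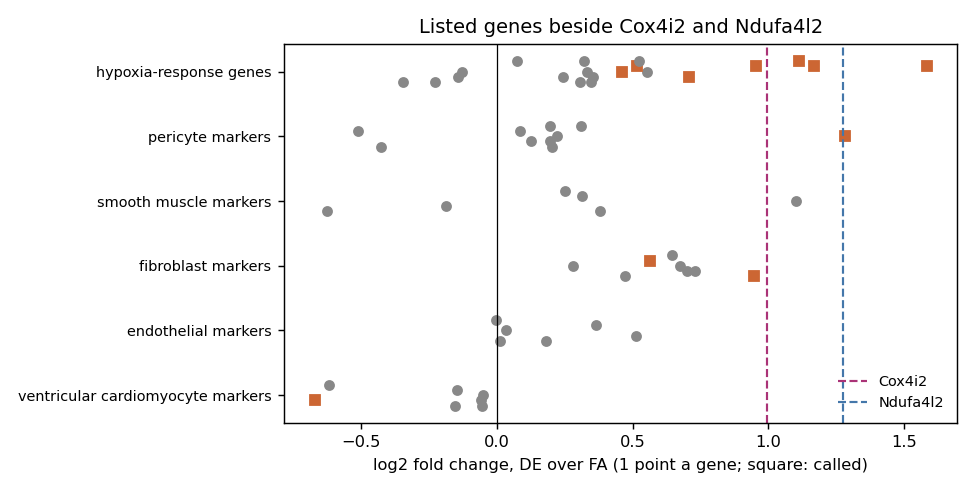
Log2 fold change of DE over FA for the tested genes of 6 lists, 1 point a gene and squares for called genes, with dashed lines at Cox4i2 (0.99) and Ndufa4l2 (1.28). Of the pericyte markers, Higd1b alone lies near the lines, the hypoxia-response genes spread from -0.35 to 1.58, and the fibroblast markers lie between 0.28 and 0.95.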

How the data were processed

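Poly-A RNA of 8 libraries was prepared with a stranded kit. Per the labels and the study's methods, the authors aligned reads to mm10 with TopHat and an Ensembl reference transcriptome, marked but kept duplicates, and deposited raw counts per Entrez gene from featureCounts. The versions of TopHat and featureCounts and the strand and multi-read settings are not given in the sources used here. Symbols were matched for 25275 of 27179 genes.

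Counts were tested with edgeR 4.0.16 (R 4.3.3), using TMM factors, filterByExpr with a minimum count of 10 and the quasi-likelihood test, with Benjamini-Hochberg adjustment over 14966 genes. Calls required an adjusted p up to 0.05 where the fold change was also at least 25%. The scripts were tested on simulated data. Ratios were taken per library after 0.5 counts were added to each gene and were not tested. Levels were divided by the median GENCODE M21 protein-coding transcript length. Gene coordinates are those of RefSeq on GRCm38.p6. Intervals of counts were not needed, since values rest on replicates.

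The members and gene lists were chosen with earlier results of these data known. The text names the members, the called genes of each list (at most 4, by smallest p) or, with none called, those with the 2 smallest p, and the 5 genes most like Cox4i2 and Ndufa4l2. Names outside this rule (Cox5a, mt-Co3, Pdgfrb, Cspg4, Rgs5, Mcam, Abcc9, Prdm16, Ucp1, Dio2, Csf1r, Cdh5, Kdr, Ryr2, Myl2, Hif1a, Arnt, Vegfa, Car9, Kdm3a, Ddit4, Mxi1, genes at 0 or too low to test, and overlapping neighbours), and the pericyte sum without Abcc9, were chosen after their values were seen. Alternatives were the likelihood ratio test, DESeq2 1.42.0, other scalings and filters, the name prefix, length and GC offsets, and leaving out each library. The alternatives with exon-union length and the genes with known length and GC content without offsets, were chosen after seeing the data.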

Additional observations from a re-analysis of the deposited data

How the results depend on the processing

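Ndufa4l2 was called in all 20 alternatives (log2 fold change 0.97 to 1.42, highest adjusted p 0.0241 by edgeR). Cox4i2 was higher in all 20 (0.73 to 1.10), but its call was lost with the name prefix as a term (0.74, adjusted p = 0.0816 by edgeR), within prefix 11 (0.73, 0.0933), with the 25% difference built into the test (0.0904), and without FA replicate 2, FA replicate 4 or DE replicate 3. The number of members called was therefore 1 in those 3 settings and 1 to 2 with single libraries left out. The other 8 members were not called in any alternative, and each changed sign in at least 1 of them.

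The 868 genes called became 1603 with the likelihood ratio test, 1620 with DESeq2, 448 with the prefix as a term, 260 within prefix 11, 1478 with length and GC offsets, 114 with the 25% difference built in, and 237 to 1168 with single libraries left out. The Cox7a1 to Cox7a2 difference was 0.10 within prefix 11. Log2 levels within FA kept their direction. With exon-union length they were -7.04 for Cox4i2 over Cox4i1, 0.94 for Cox6a2 over Cox6a1, 2.15 for Cox7a1 over Cox7a2, -0.83 for Cox8b over Cox8a and -5.96 for Ndufa4l2 over Ndufa4. Without length they were 0.90, 1.33, -1.62 and -6.29 for the last 4 pairs. Of the lists, hypoxia-response calls ranged from 3 to 9, fibroblast calls from 1 to 6, pericyte and erythroid calls from 0 to 1, assembly factor calls from 0 to 2 and calls among the control factors from 0 to 2 (2 with the offsets). The causes were not tested.

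Depth limits Cox4i2 most, with 42 counts in its lowest library. No paired analysis was possible because the groups share only replicate number 3. Prefix 12 holds DE libraries only, while prefix 11 holds 4 FA and 2 DE libraries. Within prefix 11 the lowest DE library stood above the highest FA library for Cox4i2 (4.53 against 3.49 CPM) and Ndufa4l2 (10.6 against 7.43 CPM).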

Other observations

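Isoforms of the complex known from testis were low or at 0. Cox6b2 was at 3.28 ± 0.532 (FA) against 3.79 ± 0.901 CPM (DE) (SD, n = 4 each). Cox7b2 had 14 counts over all 8 libraries, Cyct, the testis cytochrome c, had 25, and Cox8c had 0.

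The 5 genes whose log2 CPM was most like that of Cox4i2 over the 8 libraries were Glb1, Morn2, Ppp1r14a, Shisa5 and Ctsz (Pearson r 0.995 to 0.986), with Ndufa4l2 at rank 16 (r = 0.980). For Ndufa4l2 they were S100a10, Shfl, Vim, Crtap and Tspan7 (r 0.992 to 0.983), with Cox4i2 at rank 14. The group difference is part of these correlations, and all genes of a library share its depth and composition. Vim, the intermediate filament of mesenchymal cells, averaged 715 (FA) against 1237 CPM (DE). Ppp1r14a, an inhibitor of myosin phosphatase known from smooth muscle, was at 1.39 and 3.18 CPM.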
